A study of Mus musculus with 2 samples.

Results

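The predicted mirtrons examined here are the 201 microRNA genes, of 2202 in the deposited tables, whose GENCODE M21 symbol lies in the run from Mir6896 to Mir7094. The rule uses the symbol and no measured value, but the series was picked for description with earlier results of these data known. They were measured by microRNA-seq of adrenal gland, from total RNA of wild-type mice of the C57BL/6J strain supplied by The Jackson Laboratory. The 2 libraries form 1 group and are numbered as biological replicates 1 and 2. Both carry the same donor identifier, so nothing shows that they came from separate animals. Every p-value below compares only these 2 libraries, by a test that knows counting error only. A difference between them may therefore be technical. No treatment or transgene is listed. The age is unknown, and 1 label calls the animals female while another says that sex was not collected.

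A mirtron is a microRNA precursor made by splicing. In the usual route the enzyme Drosha cuts a hairpin out of a long transcript. In a mirtron the spliceosome cuts out a short intron, the lariat is opened, and the intron folds into a hairpin that Dicer can process. In a tailed mirtron only one hairpin end is a splice site, and the extra stretch of intron at the other end has to be trimmed. The adrenal gland combines a cortex that makes steroid hormones and a medulla that makes catecholamines.

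The replicate 1 library had 9137907 counts on the strand of a microRNA gene and the replicate 2 library 6570375. A CPM value is a count per 1000000 of these totals. Of microRNAs typical of the tissue, the neuroendocrine Mir375 stood at 49445 ± 1171 CPM (SD, n = 2) and Mir7b at 3109 ± 390 CPM. Markers of neighbouring and foreign tissue were lower. The kidney microRNAs Mir192, Mir194-2 and Mir204 lay between 31.7 and 47.9 CPM, the hepatocyte Mir122 at 99.8 ± 40.0 CPM, and the muscle microRNA Mir206 had 2 and 3 counts. MicroRNAs of blood cells were present, with Mir451a at 110 and 245 CPM, Mir142 at 416 and 231 CPM, and Mir150 at 368 and 494 CPM. Their part in the members' counts was not tested.

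Nearly all members ended where an intron ends. Of the 201 hairpins, 187 (93.0%) had their 3′ end within 3 bases of the splice acceptor of an intron on the same strand, and in 186 of them the match was exact. Only 14 were complete introns, with both ends at splice sites. A further 173 (86.1%) were at the acceptor only. In all of these but Mir7082 the intron ran on upstream of the hairpin, the form known as a 5′-tailed mirtron. The hairpin of Mir7082, of 92 bases, covered its whole intron of 88 bases and reached past the donor. Another 4 began at a splice donor and did not end within 3 bases of the acceptor. Of these, Mir6973b in Gfra4 ran 7 bases past the acceptor, and the others stopped short of it. A further 9 lay in an intron with neither end at a splice site. Mir7025 lay over an exon of Pdgfra, the receptor of platelet-derived growth factor. Of the hairpins outside the acceptor group 8, among them Mir6904 in Parp1 and Mir6925 in Kif1c, ran 6 or 7 bases past the acceptor into the exon. Among the 2001 other microRNA genes, 32 reached an acceptor only and 8 were complete introns.

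**Figure D1:**
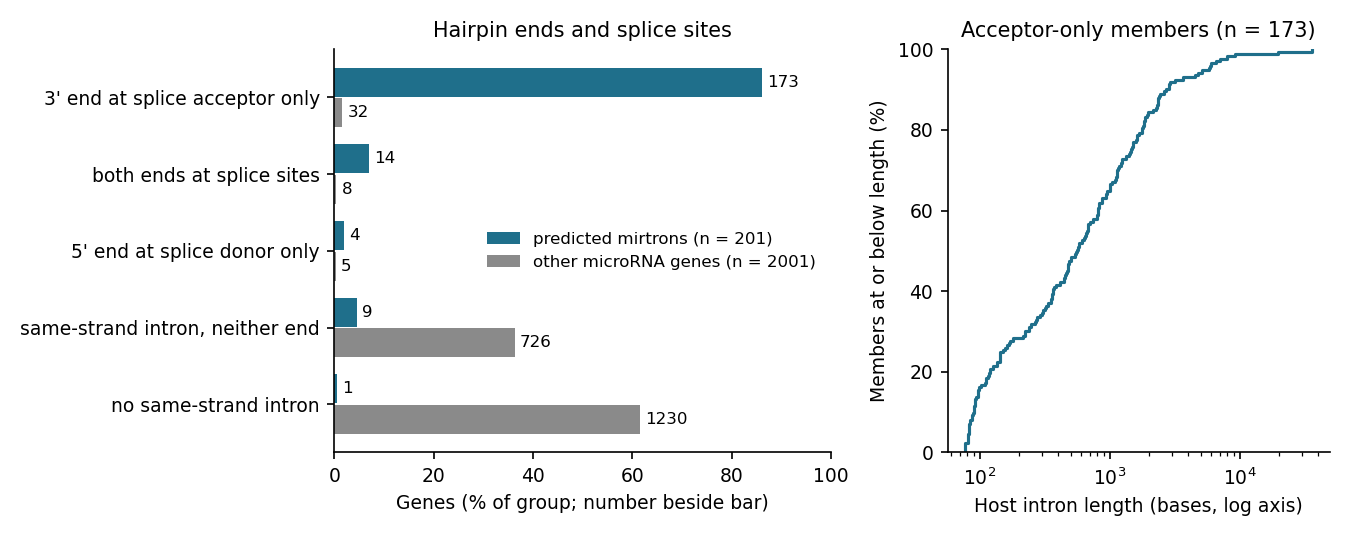
Left, the share of genes (%) in each class of hairpin end, for the 201 predicted mirtrons and the 2001 other microRNA genes, with the number of genes beside each bar. Right, the cumulative share of the 173 acceptor-only members against the length of the host intron in bases on a log axis, with a median of 563 bases.

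The host introns of the acceptor-only members were mostly not short. Their median length was 563 bases, with quartiles of 151 and 1468 and a longest intron of 36269 bases. The stretch upstream of the hairpin had a median of 499 bases. The 14 complete introns ran from 67 to 137 bases, with a median of 81. Where a gene has several transcripts, the intron nearest to the hairpin ends was taken, so these lengths are those of the best matching transcript. The host was a protein-coding gene on the same strand for 198 members. There were 5 hosts that held 2 members each, and none of 28 genes of steroid or catecholamine synthesis checked as hosts held any.

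Leading members are shown as hairpins from RefSeq (GRCm38.p6), 5′ to 3′, because the splice sites are visible at their ends. Capitals mark the first and last bases of the intron where the hairpin end is that splice site. The first 4 end at an acceptor only, and the last 2 are whole introns.
Mir7083: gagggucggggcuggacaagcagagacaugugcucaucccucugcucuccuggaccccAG
Mir7019: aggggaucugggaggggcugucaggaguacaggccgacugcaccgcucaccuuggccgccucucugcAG
Mir6968: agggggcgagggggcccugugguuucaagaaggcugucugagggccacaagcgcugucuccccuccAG
Mir6897: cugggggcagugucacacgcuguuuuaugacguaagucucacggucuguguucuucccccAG
Mir6944: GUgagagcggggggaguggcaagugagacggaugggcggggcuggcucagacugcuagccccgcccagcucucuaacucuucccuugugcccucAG
Mir7080: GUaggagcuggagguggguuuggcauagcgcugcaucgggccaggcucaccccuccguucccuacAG

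Mir7083 lies on chromosome 9 at 21809941-21810000 (mm10, minus strand) in intron 38 of Dock6, a guanine nucleotide exchange factor. Mir7019 lies on chromosome 4 at 138316132-138316200 (minus strand) in intron 5 of Pink1, the mitochondrial kinase that starts mitophagy. Mir6968 lies on chromosome 17 at 26935472-26935539 (plus strand) in intron 6 of Phf1, a partner of Polycomb repressive complexes. Mir6897 lies on chromosome 1 at 36144252-36144313 (minus strand) in intron 40 of Uggt1, a folding sensor of the endoplasmic reticulum. Mir6944 is the whole of intron 9 of Dbn1, the actin-binding protein drebrin, on chromosome 13 at 55477681-55477776 (minus strand). Mir7080 is the whole of intron 12 of Cpne7, a calcium-dependent membrane-binding protein, on chromosome 8 at 123130106-123130172 (plus strand).

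The members shared a base composition that is visible in these sequences. The hairpin ended in AG in 187 of 201 members (93.0%), against 7.40% of other microRNA genes. The last 3 bases were CAG in 158 members and UAG in 27, against 3.35% and 0.450% of the other genes. The 17 bases before them were C or U at a median of 76.5%, against 52.9% in other genes, as in the pyrimidine tract that precedes a splice acceptor. These 3′ features go with ending at an acceptor and are not a separate trait of the members. Of the 40 other genes that ended at an acceptor, 24 ended in AG, including all 8 whole introns. The 5′ end held more G, at a median of 45.0% of the first 20 bases against 30.0%. Members were shorter than other microRNA genes, at a median of 66 bases against 93, and had a median GC content of 57.1% against 50%. The predicted folding energy per base had medians of -0.389 in members and -0.365 in other genes, in kcal/mol (RNAfold).

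**Figure D2:**
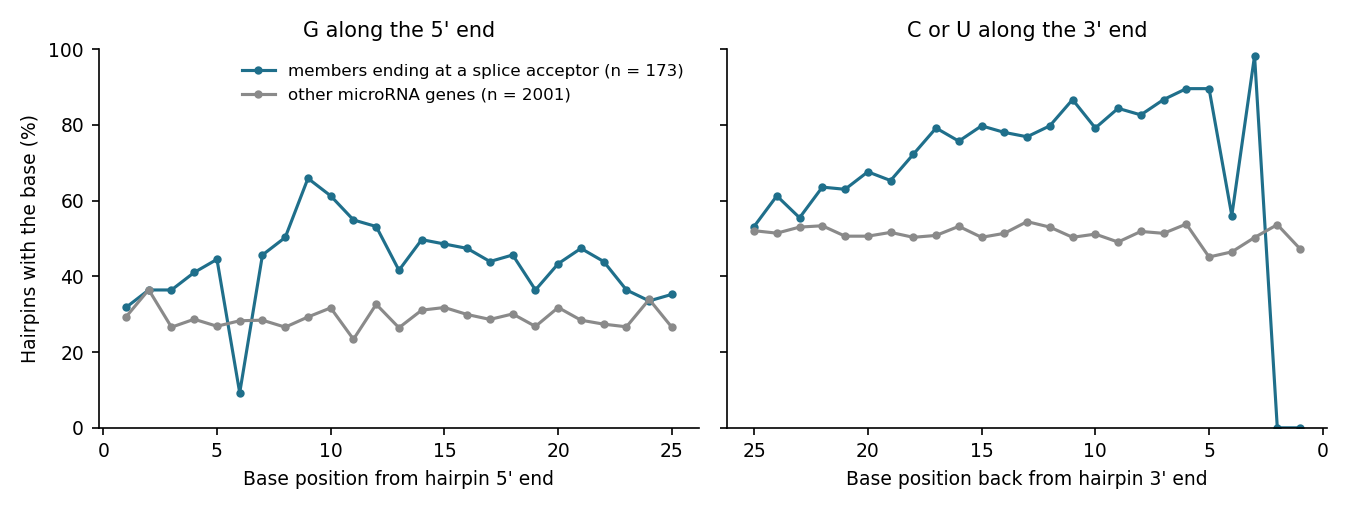
Share of hairpins (%) with G at each base counted from the 5′ end (left) and with C or U at each base counted back from the 3′ end (right), for the 173 members ending at an acceptor only and the 2001 other microRNA genes. At the 3′ end the last 2 bases of the members hold no C or U, and 98.3% have C or U just before them.

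The annotated mature arms carried the same features. RefSeq held mature sequences for 185 of the 201 members. Arms from the 3′ side had a median of 72.2% C or U, against 54.5% in other microRNAs, and 77.4% of 177 such arms ended in AG against 11% of 554. Of 166 3′ arms in members ending at an acceptor, 130 ended on the last base of the intron. Arms from the 5′ side had a median of 43.5% G, against 27.3%. Of 152 5′ arms in acceptor-only members, 130 began exactly 5 bases into the annotated hairpin, and the upstream end of these hairpins is not at a splice site.

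Mature arms of the 4 highest members are shown with the seed, bases 2 to 8, in capitals, because the seed sets target choice. The counts are for whole hairpins, so they do not say which arm was read.
miR-7083-5p: uCGGGGCUggacaagcagaga
miR-7083-3p: uCUGCUCUccuggaccccag
miR-7019-5p: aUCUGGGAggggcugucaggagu
miR-7019-3p: uCACCUUGgccgccucucugcag
miR-6968-5p: aGGGGGCGagggggcccugugg
miR-6968-3p: aCAAGCGCugucuccccuccag
miR-6944-5p: gUGAGAGCggggggaguggcaag
miR-6944-3p: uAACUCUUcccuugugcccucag

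These members differed from each other in every seed shown. Over all members with mature sequences there were 325 distinct seeds, of which 300 occurred in 1 member, 21 in 2 and 4 in 3. Of the 325 seeds, 44 also occurred in a microRNA outside the series, for example GAGGGGC in miR-6921-5p and miR-423-5p and UGUGCUU in miR-7002-3p and miR-218-5p, both pairs chosen from the full list. One of the seeds found in 3 members came from 3′ arms with the same opening bases:
miR-7018-3p: uCACCCUGcugccggcuugcag
miR-7023-3p: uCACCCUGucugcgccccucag
miR-7068-3p: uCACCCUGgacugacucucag
Mir7018, in Hspg2, had 13 and 15 counts in replicates 1 and 2, Mir7023, in Pik3cd, had 7 and 0, and Mir7068, in Cherp, had 4 and 9.

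The members were read widely and at very low levels. At least 1 count was found for 165 of 201 (82.1%), and 120 (59.7%) had a count in both libraries. Among the 2001 other genes those shares were 32.6% and 27.7%. At 10 counts in both libraries, called detected here, the order turned, with 28 members (13.9%) against 18.7% of other genes. No member reached 100 counts in either library, while 268 other genes did so in both. Other genes in introns of the same strand lay between, with a count in at least 1 library for 44.0% of 771. Of the 32 other genes that reach an acceptor only, 26 (81.3%) had a count.

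**Figure D3:**
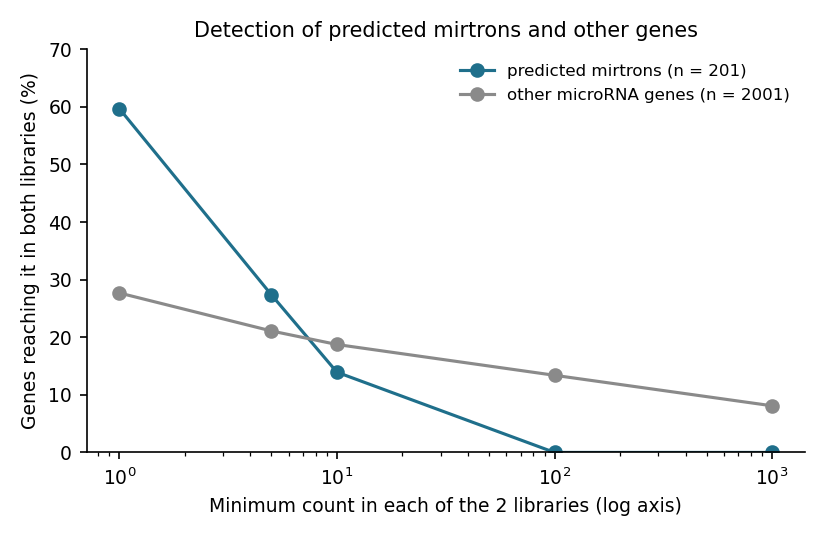
Share of genes (%) that reach a minimum count in both libraries, on a log axis of the minimum, for the 201 predicted mirtrons and the 2001 other microRNA genes. The members start at 59.7% for 1 count, cross the other genes between 5 and 10 counts and reach 0 at 100 counts.

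Summed over the series, the members had 1247 counts in replicate 1 (exact 95% Poisson interval 1179 to 1318) and 1073 in replicate 2 (1010 to 1139). These sums are 136 and 163 CPM, a mean of 150 ± 19.0 CPM (SD, n = 2), or 0.0136% and 0.0163% of all gene counts. The median member had 3 counts in each library. The 5 leading members held 19.6% and 18.5% of the members' counts, and the 28 detected ones 57.2% and 56.0%, so no single gene carried the sum. The highest member ranked 303 of 2202 genes by mean CPM, and 42 members had a mean of at least 1 CPM. A count of 0 was taken to allow up to 3 counts, which is 0.328 CPM in replicate 1 and 0.457 CPM in replicate 2. The exact 95% Poisson interval of a count of 0 reaches slightly higher, to 3.69 counts. Intervals and limits cover counting error only.

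Mir7083, the highest member, had 71 and 54 counts in replicates 1 and 2, a mean of 7.99 ± 0.317 CPM (SD, n = 2). Mir7019 had 35 and 53 counts, or 5.95 ± 3.0 CPM. Mir6968 had 63 and 20 counts, or 4.97 ± 2.72 CPM. Replicate 1 was low for Mir7019 and high for Mir6968, while Mir7083 was similar in both. Mir6944 had 30 and 43 counts (4.91 ± 2.31 CPM), and Mir6897 had 46 and 28 (4.65 ± 0.546 CPM). The other whole intron among the leading genes, Mir7080, had 37 and 28 counts (4.16 ± 0.15 CPM). The means of these 5 members below Mir7083 differ by less than the spread between the libraries of Mir7019 or Mir6968, so their order is not resolved. The lead of Mir7083 over Mir7019 is not resolved either, with 54 and 53 counts in replicate 2.

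**Figure D4:**
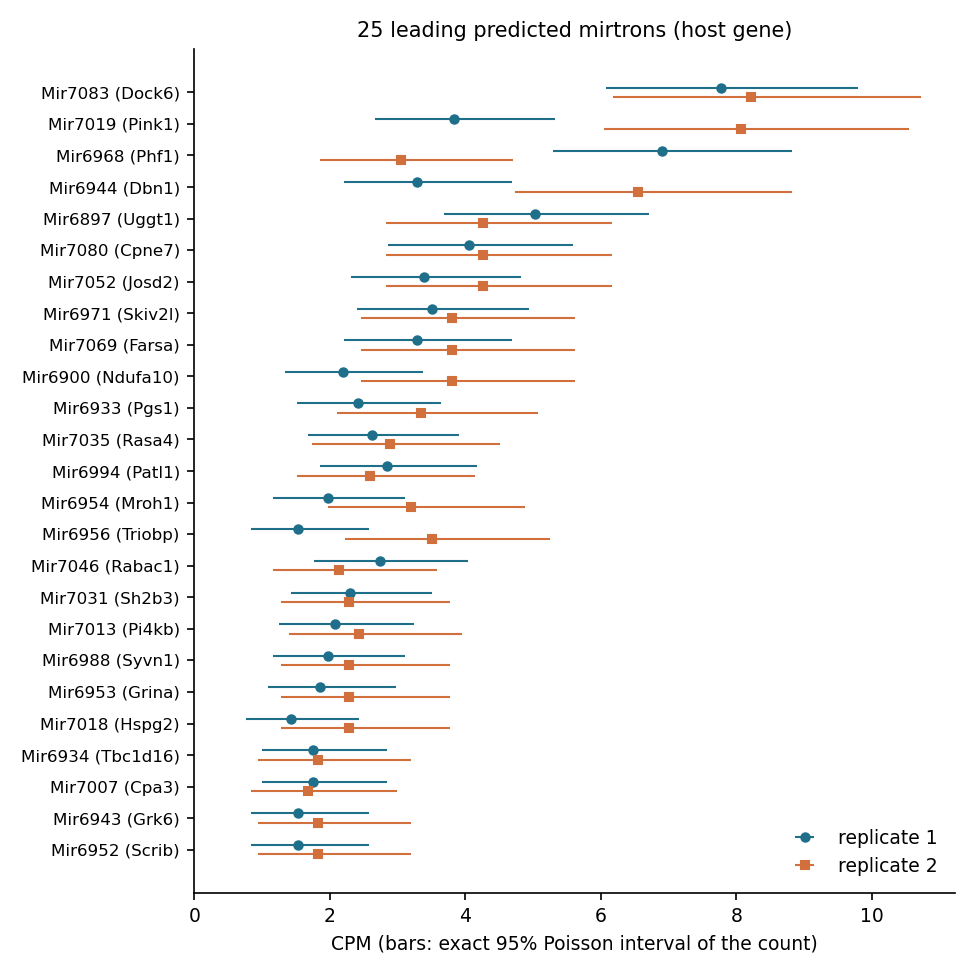
Level in CPM of the 25 leading members with their host genes, for replicate 1 (circles) and replicate 2 (squares), with bars for the exact 95% Poisson interval of each count. Mir7083 is highest at 7.77 and 8.22 CPM, and neighbouring members mostly overlap.

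The next members came from hosts of varied function. Mir7052 in Josd2, a deubiquitinase, had 31 and 28 counts. Mir6971 in Skiv2l, a helicase of cytoplasmic RNA decay, had 32 and 25. Mir7069 in Farsa, a subunit of phenylalanyl-tRNA synthetase, had 30 and 25. These 3 hosts serve general cell functions. Mir6900 in Ndufa10, a subunit of respiratory complex I, had 20 and 25 counts, and Mir6933 in Pgs1, an enzyme of the cardiolipin pathway, had 22 and 22. Mir7035 in Rasa4, a Ras GTPase-activating protein, had 24 and 19, and Mir6994 in Patl1, a decapping factor, had 26 and 17. All lay between 2.72 and 3.83 CPM on average.

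The remaining named members had 39 counts or fewer over both libraries. Mir6954 in Mroh1 had 18 and 21, Mir7046 in Rabac1 (a Rab-binding membrane protein) 25 and 14, and Mir6956 in Triobp (an actin-binding protein) 14 and 23. Mir7031 in Sh2b3 (a cytokine signalling adaptor) had 21 and 15, and Mir7013 in Pi4kb (a lipid kinase of the Golgi) had 19 and 16. Mir6988 in Syvn1, a ubiquitin ligase of the endoplasmic reticulum, had 18 and 15 counts. Mir6953 in Grina had 17 and 15, and Mir7018 in Hspg2, the basement membrane protein perlecan, had 13 and 15. Each of these was read in both libraries and the Poisson intervals of its counts overlapped, which does not show equal levels. For Mir6956 the counting interval of the log2 ratio of replicate 2 over replicate 1 lay above 0 (0.07 to 2.16). Mir6934 in Tbc1d16 had 16 and 12 counts, Mir7007 in Cpa3, the carboxypeptidase of mast cells, had 16 and 11, and both Mir6943 in Grk6 and Mir6952 in Scrib had 14 and 12.

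Acceptor-only members and whole introns overlapped in level, and whether they differ was not tested. Of the 173 acceptor-only members, 25 (14.5%) were detected, with a median of 3 counts in each library and highest counts of 71 and 54. Of the 14 whole introns, Mir6944, Mir7080 and Mir7018 were detected and 6 had no count. Whole introns had a median of 0.5 counts in each library and highest counts of 37 and 43. At least 1 count was found for 57.1% of them, against 84.4% of the acceptor-only members. None of the 4 donor-end and 9 other intronic members was detected. Their highest counts were 8 and 6, in Mir7051 of Etfb. Among acceptor-only members, 10 of 43 in introns below 150 bases were detected, 7 of 69 in introns from 150 to below 1000 bases and 8 of 61 in longer ones. Their median counts were 5 and 5, 3 and 3, and 2 and 1 in replicates 1 and 2. These length limits were chosen after the lengths were seen, and the differences were not tested.

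Some members lie inside an exon of another transcript of the same strand, for example where that transcript retains the intron. This held for 28 members, 13.9% of the series, close to the 12.6% of the 2001 other microRNA genes that lie inside a same-strand exon. It held for 4 of the 28 detected members, Mir7019, Mir7080, Mir7035 and Mir6954. Of the 28 members inside an exon 75% had a count, and of the other 173 members 83.2%. Reads from the hairpin and reads from fragments of the host transcript cannot be told apart in gene counts.

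In 2 of the 5 hosts with a pair of members, 1 member had counts and the other had none. In Srebf1, the sterol-responsive transcription factor, Mir6921 had 12 and 6 counts and Mir6922 had 6 and 7, with overlapping intervals. In Ankrd52, Mir6915 had 8 and 6 and Mir6914 had 1 and 3. In Cmip, Mir7077 had 1 and 4 and Mir7078 had none. In Arap3, Mir6980 had 3 and 8 and the whole intron Mir6981 had none. None of these differences within a host was tested. The widest gap was in Skiv2l, where Mir6971 had 32 and 25 counts and the whole intron Mir6970 had 0 and 1. Mir6970 shares 20 or more bases with Gm27471 in the pseudogene Skiv2l-ps1, so its reads may align to several places and its level is uncertain. Mir7065 and the pair Mir7094-1 and Mir7094-2 also share 20 bases with another microRNA gene, and all 3 had no count.

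Well-known mirtrons outside the numbered series gave a scale for these levels. Mir877, a whole intron of Abcf1, had 864 and 816 counts, a mean of 109 ± 21 CPM (SD, n = 2). That is 13.7 times the level of Mir7083 and 0.730 times the sum of all 201 members. Mir702, over an intron of Plod3, had 196 and 228 counts (28.1 ± 9.37 CPM), and Mir1224, a whole intron of Vwa5b2, had 100 and 66 (10.5 ± 0.635 CPM). All 3 stood above every member. The Mir702 hairpin, of 109 bases, is longer than its intron of 102 bases. It starts 9 bases upstream of the donor, in the exon, and ends 2 bases before the acceptor. CPM values are per gene and not per base, but Mir877 and Mir1224 are each 85 bases long, within the range of the members.

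The libraries were compared with each other gene by gene, with an exact two-sided binomial test against their TMM-scaled sizes and Benjamini-Hochberg adjustment over all 426 genes with at least 20 counts. This test knows counting error only. Of the 34 members tested, 3 differed, 2 higher in replicate 2 and 1 higher in replicate 1, which is few beside the 56.1% of all tested genes that were called (25.8% higher in replicate 2 and 30.3% higher in replicate 1). Among the 91 tested genes outside the series with no more counts than Mir7083, 19.8% were called. Mir6968, at 63 and 20 counts, was 2.39-fold higher in replicate 1 (log2 ratio of replicate 2 over replicate 1 -1.26, 95% counting interval -2.09 to -0.54, adjusted p = 0.000831 in the exact binomial test). Mir7019, at 35 and 53 counts, was 1.95-fold higher in replicate 2 (log2 ratio 0.96, interval 0.33 to 1.63, adjusted p = 0.00392, exact binomial test). Mir6944, at 30 and 43 counts, was 1.85-fold higher there (log2 ratio 0.89, interval 0.19 to 1.62, adjusted p = 0.0179, exact binomial test).

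The other 31 tested members did not pass, which at these counts leaves wide intervals. Mir7083 had a log2 ratio of -0.02 (interval -0.56 to 0.51). Mir6956 had 1.07 (interval 0.07 to 2.16, adjusted p = 0.0525 in the exact binomial test) and was called when the libraries were scaled by total counts. That scaling called 5 members, 4 of them higher in replicate 2. Beside Mir6956 and the 3 above, it called Mir6985, which was also called with DESeq2 size factors. Over the 34 members the median log2 ratio was 0.12, beside -0.03 over all tested genes, and 21 were above 0 and 13 below. Of the well-known mirtrons, Mir702 (0.59) and Mir877 (0.29) were higher in replicate 2 by the same test and Mir1224 (-0.22, interval -0.70 to 0.24) did not pass. Across the 201 members the counts of the libraries had a Spearman correlation of 0.755, over genes that share libraries and are not independent. With 1 group, no difference can be assigned to a condition.

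**Figure D5:**
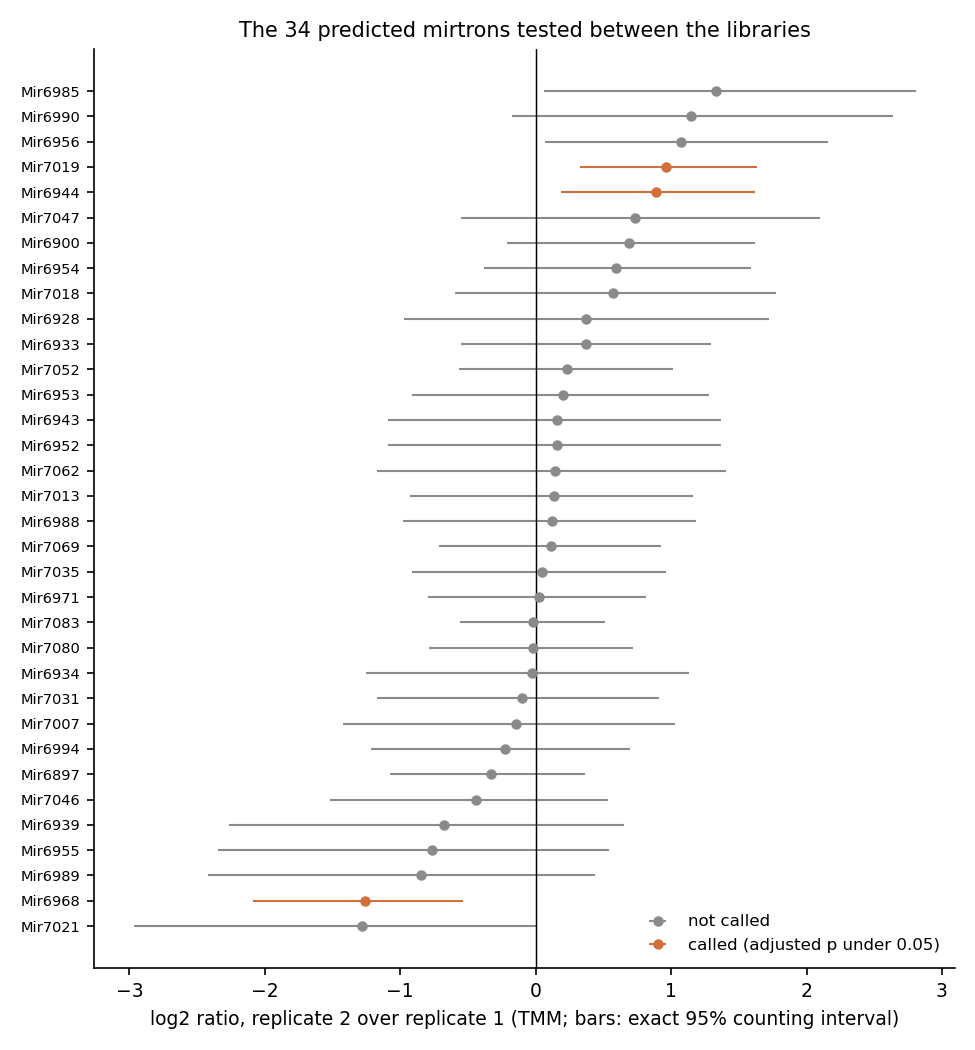
Log2 ratio of replicate 2 over replicate 1 for the 34 tested members, with exact 95% counting intervals. The 3 called members, Mir7019, Mir6944 and Mir6968, are in orange and the 31 others in grey.

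Almost no reads lay on the strand opposite to the members. There were 7 antisense counts beside 2320 sense counts over both libraries. Mir7071 in Heatr3 had 3 of them in replicate 1, where it had 1 sense count. Mir7045 had 1 in replicate 1, and Mir7032, Mir7034 and Mir6928 had 1 each in replicate 2. None of the members overlaps another microRNA gene, against 3.35% of the other genes.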

How the data were processed

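The authors deposited raw read counts per microRNA gene for each library, with mm10 and GENCODE M21 named in the deposited read-me text. For the aligner and counter, the names were not given in the sources used here. The second of 3 columns, with the larger stranded total, was read as the strand of the gene. Rows that name no gene were left out of the totals. One of them holds multiply aligned reads, 35.9% of replicate 1 and 36.0% of replicate 2, which are not in the gene counts.

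Introns, hosts and hairpin ends came from GENCODE M21 and mature sequences from RefSeq (GRCm38.p6), which held hairpins of 180 members, all identical to GENCODE. A hairpin end within 3 bases of a splice site was taken to be at it. Folding used RNAfold 2.7.2. TMM factors came from edgeR 4.0.16 (R 4.3.3), size factors of an alternative from DESeq2 1.42.0, and binomial tests from scipy 1.17.1. Log2 ratios had 0.5 counts added. The libraries were set against each other as 1 against 1, and such a fit in edgeR leaves no residual degrees of freedom. The threshold was an adjusted p of 0.05. On simulated Poisson counts with between 20 and 130 counts over both libraries, the test called 10 of 16 genes with a fold of 2 and 1 of 69 unchanged genes. The simulated counts held counting error only, as the test assumes, so they do not give its rate of false calls in these libraries.

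The genes named are the 25 highest members with at least 10 counts in both libraries, those called, those with antisense counts and 3 well-known mirtrons. No member had 10 counts in 1 library and none in the other. Others were chosen after their values were seen. The members, although defined by symbol, and the lists were chosen with earlier results of these data known.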

Additional observations from a re-analysis of the deposited data

How the results depend on the processing

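The count of members that differ between the libraries was 3, and 5 when scaled by total counts (4 of them higher in replicate 2) and 5 with no filter on low counts, where Mir7045 and Mir6935 joined. DESeq2 size factors gave 4, with Mir6985 joining, and 3 was found with 1 count added and with counts on either strand. Mir6968, Mir7019 and Mir6944 were among those called in each of these settings. Detection in both libraries counted 28 members at 10 counts, 55 at 5 counts and 120 at 1 count, and from 33 to 38 members when leaving out 1 library. The summed level was 150 CPM of gene counts, 70.4 CPM of all reads, and 136 to 163 CPM when leaving out 1 library. Whole introns numbered 14 at a distance of 0 or 3 bases and 18 at 10. Scaled by total counts, log2 ratios near 0 changed sign for Mir7083 (0.084), Mir7080 (0.080), Mir7031 (0.0038) and Mir6934 (0.075), none of them called, as the median over the tested members moved from 0.12 to 0.23, and Mir6956 was called. The other 24 of the 29 named log2 ratios kept direction and call there, as did all 29 under DESeq2 size factors and with 1 count added. Mir6985 is not among these 29. No paired analysis was possible because there is 1 group. Depth limits the comparison, since the median member had 3 counts.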

Other observations

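Members with no count in either library included some in hosts best known from other cell types. These groups of hosts were drawn up from general knowledge after the values were seen, so their counts are a description without a test. Of 14 members in hosts typical of leukocytes, 8 had no count. They include Mir7058 in Lat (a T-cell signalling adaptor), Mir6974 in Lta and Mir6973a in Ltb (lymphotoxins), Mir6949 in Mcpt8 (a basophil protease) and both Mir7094 copies, in an immunoglobulin variable gene and a variable pseudogene, whose shared sequence leaves their level uncertain. In the same group, Mir7007 in Cpa3 had 16 and 11 counts in replicates 1 and 2, and Mir7062 in Adam8 had 13 and 11. Of 6 members in hosts typical of neurons, 4 had no count, among them Mir7055 in Slc17a7 (a vesicular glutamate transporter) and Mir7066 in Ncan (a brain proteoglycan). Mir6944 in Dbn1, described above, belongs to the same group. Both members in hosts of the exocrine pancreas, Mir6969 in Clps and Mir7076 in Ctrb1, had none.

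Of 6 members in housekeeping hosts, 5 had a count and none was detected. Mir6935 in Actg1 had 0 and 7 counts, Mir7090 in Ctnnb1 had 1 and 0, and Mir7079 in Rpl13 had none. Over the whole series 17.9% of members had no count. Host transcript levels were not measured here, so the relation of host and member was not tested.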
